A study of Mus musculus with 6 samples.

Results

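p53 target genes were described in mouse T helper 9 (Th9) cells that had been given sphingosylphosphorylcholine (SPC), a lysophospholipid, during their differentiation, and in control cells. The 35 members are Trp53, which encodes p53, with its regulators and established targets. They were found by gene symbol in the deposited count tables, where all 35 occur among 23183 symbols. Each had at least 1 count. The filter on low counts left 34 of the 35, among 12226 tested genes. Dram1, a lysosomal autophagy gene, was the member left out, with 9, 6 and 7 counts in the SPC libraries and 14, 7 and 1 in the control libraries.

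The SPC group holds 3 libraries of cells given 30 µM SPC (d18:1) and the control group 3 libraries of cells without it. Both groups are otherwise alike. Naive CD4+ T cells from spleens of wild-type C57BL/6N mice were stimulated with 1 µg/ml each of soluble anti-CD28 and of anti-CD3e bound to the plate, supplied with TGF-β1 at 2 ng/ml, IL-4 at 10 ng/ml and an antibody against IFN-γ at 10 µg/ml, and taken on day 3. The libraries of each group are numbered 1 to 3, and the series text speaks of 3 independent experiments.

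p53 is a transcription factor that is held low by the ubiquitin ligase Mdm2 and its partner Mdm4, and that accumulates when DNA is damaged or the cell is stressed. It then switches on genes that stop the cell cycle, genes that start mitochondrial apoptosis and genes that repair DNA, along with Mdm2 itself, which closes a feedback loop. In T cells p53 is known to restrain proliferation, and its target Bbc3 takes part in the death of activated T cells. Many of these genes also answer to other transcription factors.

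p53 binds a response element made of 2 half-sites of 10 bases each, often close to the start of its target genes. The RefSeq promoter windows (GRCm38.p6, the assembly that mm10 names), from 250 bases before to 50 after each gene's start, were searched for this element with at most 3 departures from its consensus in 20 positions, at most 1 base between the half-sites and the central C and G of both half-sites intact. The consensus reads the same on both strands. A window was at hand for 28 of the 35 members, and 9 of these (32.1%) held a match, against 3.27% of 27025 genes. The matches of 6 members are printed here, since they set 3 members that rose with SPC in a paired test beside 3 that were not called. The half-sites are in capitals and each sequence is on the gene's strand.
Cdkn1a: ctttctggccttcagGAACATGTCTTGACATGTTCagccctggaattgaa
Bbc3: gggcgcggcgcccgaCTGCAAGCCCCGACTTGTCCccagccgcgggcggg
Bax: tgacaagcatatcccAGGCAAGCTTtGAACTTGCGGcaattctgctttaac
Ccng1: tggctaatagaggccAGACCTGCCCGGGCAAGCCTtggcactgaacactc
Gtse1: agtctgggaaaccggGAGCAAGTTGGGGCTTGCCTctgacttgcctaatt
Rps27l: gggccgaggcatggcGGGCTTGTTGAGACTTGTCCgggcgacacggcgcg

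The Cdkn1a sequence (chr17:29090913-29090962, plus strand) has its match 51 bases before an annotated start, the Bbc3 sequence (chr7:16309471-16309520, plus strand) 97 bases before and the Bax sequence (chr7:45467064-45467114, minus strand) 201 bases before. The Ccng1 sequence (chr11:40755447-40755496, minus strand) has it 195 bases before the start, the Gtse1 sequence (chr15:85859930-85859979, plus strand) 1 base before and the Rps27l sequence (chr9:66946281-66946330, plus strand) 117 bases before. Each distance runs from the first base of the match to a RefSeq start, so the Gtse1 match runs across that start. By the GENCODE annotation used for the gene coordinates below, the Bbc3, Gtse1 and Rps27l matches lie inside these genes. The matches in Cdkn1a, Ccng1, Gtse1 and Rps27l depart from the consensus at 1 position, that in Bax at 2 and that in Bbc3 at 3. Aen, Sesn1 and Trp53 held the other matches, each with 3 departures. A match describes these letters only and says nothing about binding in these cells.

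Library totals lay between 22715292 and 33049997 counts with SPC and between 22002050 and 30292992 in control. T helper transcripts were present in all libraries, with Cd4 at 456 to 483 CPM with SPC and 434 to 468 CPM in control. CPM are counts relative to the library total after TMM scaling in edgeR. Of the 6 T helper markers, 4 had a log2 fold change above 0. Cd3e (means of 98.1 CPM with SPC and 104.1 CPM in control) and Cd3g (74.4 and 78.9 CPM) lay below 0, without a call. The 5 cytotoxic T and NK cell markers, mostly Cd8b1, summed to 1.91 to 2.61 CPM with SPC and 1.86 to 2.36 CPM in control. The 4 B cell markers summed to at most 0.304 CPM in SPC and 0.227 CPM in control libraries, with Ms4a1 at 0 in all 6, and the 6 macrophage and dendritic cell markers to at most 2.87 CPM in SPC and 2.96 CPM in control libraries. Among these, the macrophage marker Adgre1 fell in the paired test, with 6, 4 and 5 counts in the SPC libraries and 12, 21 and 18 in the control libraries (edgeR adjusted p = 0.0315). Cd68 of the same list was higher with SPC in all 3 pairs (58, 40 and 48 counts, against 43, 33 and 32). It was not called in either edgeR test (paired adjusted p = 0.297). Flt3 also had a log2 fold change above 0 (0.39 ± 0.59), without a call. The 3 endothelial markers summed to 5.32 to 6.91 CPM with SPC and 6.67 to 11.5 CPM in control. Pecam1 made up nearly all of each sum, with Cdh5 at 0 or 1 count and Kdr at 0 to 2 counts per library. Pecam1 fell in the paired test, with 5.84 ± 0.81 CPM with SPC and 8.44 ± 2.63 CPM in control (edgeR adjusted p = 0.0354). The part of these markers in the members' values was not tested. In such bulk samples fewer cells of a type and less RNA per cell cannot be told apart.

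With SPC, 1 p53 target gene, Epha2, passed the test that takes group as its single term (edgeR quasi-likelihood test, Benjamini-Hochberg adjusted p under 0.05), and it rose. This is 1 of 34 tested members, where 0.483% of all tested genes were called. At an unadjusted p under 0.05 there were 10 members, where 10.2% of all tested genes were; the counts at that level given with each gene group are to be read against this share. The numbered libraries deviate together in the 2 groups, so a paired test with the library number as a further term was read beside it. In the paired test 11 of the 34 members were called (32.4%), where 7.08% of all tested genes were called. Of these 11, 9 rose (4.02% of all tested genes rose) and 2 fell (3.07% of all tested genes fell). The counts of paired calls given with each gene group are to be read against these shares. The 9 that rose were Epha2, the apoptosis genes Trp53inp1, Pmaip1, Bbc3, Phlda3 and Bax, the arrest genes Plk3 and Cdkn1a, and Sesn2, while Plk2 and Ephx1 fell. Apart from Epha2, the changes were below 2-fold. Without both libraries numbered 1 the paired test called 15 members, with Mdm2, Zmat3, Ei24, Rrm2b and Fdxr added and Plk2 lost, where 17.4% of all tested genes were called. It called 9 members without those numbered 2 (5.72% of all tested genes) and 9 without those numbered 3 (4.58% of all tested genes).

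Most members had positive fold changes. Log2 fold changes (SPC over control, group as the single term) were above 0 for 27 of 34 members (79.4%), beside 50.5% of all tested genes, with a median of 0.11 beside 0.00. In same-numbered pairs, 17 members were higher with SPC in all 3 pairs (21.8% of all tested genes were) and 2 were lower in all 3 (22% of all tested genes were). The groups did not overlap for 8 members that were higher with SPC (8.67% of all tested genes) and for 2 that were lower (7.8% of all tested genes).

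**Figure D1:**
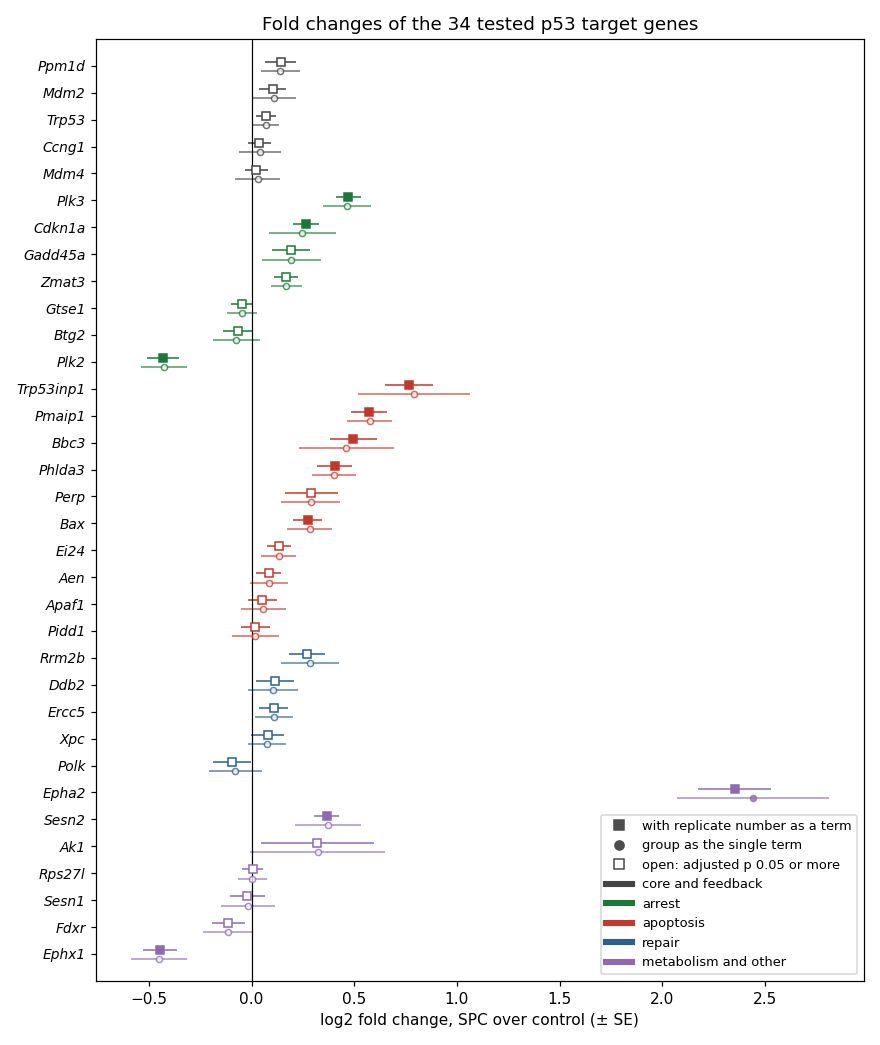
Log2 fold changes (SPC over control, horizontal axis, bars ± SE) of the 34 tested p53 target genes, in rows grouped by role. Squares are from the paired test and circles from the test with group as the single term, and filled symbols have an adjusted p under 0.05: 11 squares and 1 circle, that of Epha2 at 2.44.

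The gene of p53 itself and its feedback regulators stood close to their control levels. Trp53 (chromosome 11, 69580359 to 69591873) had 182, 179 and 178 CPM in the SPC libraries 1 to 3, against 177, 172 and 164 CPM in the control libraries. All SPC libraries lay above all control libraries, by a small margin. The means were 179.5 ± 2.34 CPM with SPC and 170.9 ± 6.44 CPM in control (SD, n = 3 each), a log2 fold change of 0.07 ± 0.07 (SE), which was not called in either test (adjusted p = 0.807, and 0.466 in the paired edgeR test).

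Mdm2, the ligase that marks p53 for degradation and is itself a p53 target, had 95.1, 122.5 and 123 CPM with SPC, against 101, 109 and 105 CPM in control. SPC library 1 lay below every control library and the other SPC libraries above them, so the groups overlap. Its log2 fold change was 0.11 ± 0.10 (edgeR adjusted p = 0.809, paired 0.422). Mdm4, the inhibitory partner of Mdm2, Ppm1d, a phosphatase that turns p53 signalling off, and Ccng1, a cyclin that feeds back on Mdm2, had log2 fold changes of 0.03 ± 0.11, 0.14 ± 0.10 and 0.04 ± 0.10. In all, 0 of these 5 genes were called in either edgeR test, and 0 had an unadjusted p under 0.05 with group as the single term. Without both libraries numbered 1, Mdm2 was called higher in the paired test (edgeR adjusted p = 0.00102), as were 9.14% of all tested genes. That fit has few residual degrees of freedom and is a weak check.

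Of the 7 genes that slow the cell cycle or belong to the G2 and stress checkpoint, Plk3 and Cdkn1a rose and Plk2 fell in the paired test, and none of the 7 was called with group alone (3 had an unadjusted p under 0.05 in edgeR). Cdkn1a (chromosome 17, 29090976 to 29100727) encodes p21, the inhibitor of cyclin-dependent kinases through which p53 stops the cycle. It had 195, 223 and 253 CPM in the SPC libraries 1 to 3, against 150, 179 and 236 CPM in the control libraries. The libraries numbered 3 were the highest of both groups, so the groups overlap although each SPC library exceeded the control library of its number. The means were 223.5 ± 29.1 CPM with SPC and 188.3 ± 44.2 CPM in control. The log2 fold change was 0.25 ± 0.16 with group alone (edgeR adjusted p = 0.690) and 0.26 ± 0.06 in the paired test (adjusted p = 0.0262). Without both libraries numbered 2 the paired adjusted p was 0.0965.

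Plk3 and Plk2 encode polo-like kinases of the stress response, and they moved in opposite directions. Plk3 (chromosome 4, 117128655 to 117133963) had 111, 109 and 95.3 CPM with SPC, against 87.1, 76.7 and 64.0 CPM in control. Every SPC library lay above every control library. Its log2 fold change was 0.46 ± 0.12 (edgeR adjusted p = 0.157), and 0.47 ± 0.06 in the paired test (adjusted p = 0.00117). Plk2 (chromosome 13, 110395046 to 110400844) had 48.0, 51.6 and 62.5 CPM with SPC, against 67.2, 78.7 and 71.8 CPM in control. Every SPC library lay below every control library. Its log2 fold change was -0.43 ± 0.11 (edgeR adjusted p = 0.169), and -0.43 ± 0.08 in the paired test (adjusted p = 0.00768), where the adjusted p was 0.0812 without both libraries numbered 1.

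Among the other arrest genes, Zmat3, an RNA-binding zinc finger gene, had 101.0 ± 6.84 CPM with SPC and 89.9 ± 2.50 CPM in control, with no overlap between the groups, and Gadd45a, a growth arrest and damage response gene, had 11.6 ± 1.59 and 10.2 ± 1.35 CPM. Neither was called (log2 fold change 0.17 ± 0.07, paired edgeR adjusted p = 0.130, and 0.19 ± 0.14, paired 0.265). Btg2, an antiproliferative gene, and Gtse1, a G2 phase gene whose product restrains p53, had log2 fold changes of -0.08 ± 0.11 and -0.05 ± 0.07 (paired adjusted p = 0.665 and 0.688). Of the exonic bases of Gadd45a, 19.1% lie under exons of an opposite-strand gene, and counting without strand could mix the reads of both.

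All 10 tested apoptosis genes had a log2 fold change above 0 (median 0.28), beside 50.5% of all tested genes. Some of these values were close to 0. With libraries left out, Apaf1 reached -0.020 and Pidd1 -0.067. In the paired test 5 of the 10 rose, while none was called with group alone (4 had an unadjusted p under 0.05 in edgeR). Pmaip1 (chromosome 18, 66458533 to 66465565) encodes Noxa, a BH3-only protein that neutralises Mcl1. It had 17.0, 18.4 and 20.9 CPM with SPC, against 11.7, 13.2 and 12.9 CPM in control. The groups do not overlap and the 3 pairs gave log2 ratios of 0.54, 0.48 and 0.70. Its log2 fold change was 0.57 ± 0.11 (edgeR adjusted p = 0.0636, paired 0.00278), a 1.49-fold difference.

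Bbc3 (chromosome 7, 16308393 to 16318205) encodes Puma, a BH3-only protein that binds all anti-apoptotic BCL2 proteins. It had 16.3, 18.5 and 22.1 CPM with SPC, against 10.98, 10.8 and 19.8 CPM in control. Control library 3 stood well above the other control libraries, and above SPC libraries 1 and 2. The log2 fold change was 0.46 ± 0.23 (edgeR adjusted p = 0.568) and 0.50 ± 0.11 in the paired test (adjusted p = 0.0241), where the adjusted p was 0.0756 without both libraries numbered 2. Without control library 3 and with group alone, the log2 fold change was 0.80 (adjusted p = 0.0863).

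Bax (chromosome 7, 45461697 to 45466898), whose product forms pores in the outer mitochondrial membrane, had 117, 94.0 and 88.3 CPM with SPC, against 85.1, 78.7 and 82.7 CPM in control. The SPC libraries lay above the control libraries, by most in the pair numbered 1. SPC over control gave a log2 fold change of 0.28 ± 0.11 (edgeR adjusted p = 0.394, paired 0.0422). Of its exonic bases, 12.2% are shared with Gm45808 on the same strand.

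Trp53inp1 (chromosome 4, 11156431 to 11174379), a stress-induced gene whose product promotes p53 activity and autophagy, had the largest fold change of the apoptosis genes. It had 36.2, 65.1 and 74.1 CPM with SPC, against 27.4, 29.0 and 45.2 CPM in control. SPC library 1 lay below control library 3, and within each pair the SPC library was the higher, with log2 ratios of 0.40, 1.17 and 0.71. SPC over control gave a log2 fold change of 0.79 ± 0.27 with group alone (edgeR adjusted p = 0.332) and 0.76 ± 0.12 in the paired test (adjusted p = 0.00283).

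Phlda3 (chromosome 1, 135766119 to 135769136), an inhibitor of Akt signalling, had 24.7, 22.4 and 21.4 CPM with SPC, against 17.4, 19.0 and 15.4 CPM in control, with no overlap. Its log2 fold change was 0.40 ± 0.11 (edgeR adjusted p = 0.178, paired 0.0151, and 0.0593 in the paired test without both libraries numbered 3). Perp, a membrane protein gene, had 5.83 ± 0.47 CPM with SPC and 4.79 ± 0.46 CPM in control, with no overlap and without a call (paired edgeR adjusted p = 0.226). Ei24, Aen, a nuclease gene, Apaf1, the scaffold of the apoptosome, and Pidd1, a death domain adaptor gene, had log2 fold changes between 0.02 and 0.13, and none was called (paired adjusted p of 0.232, 0.480, 0.732 and 0.914).

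**Figure D2:**
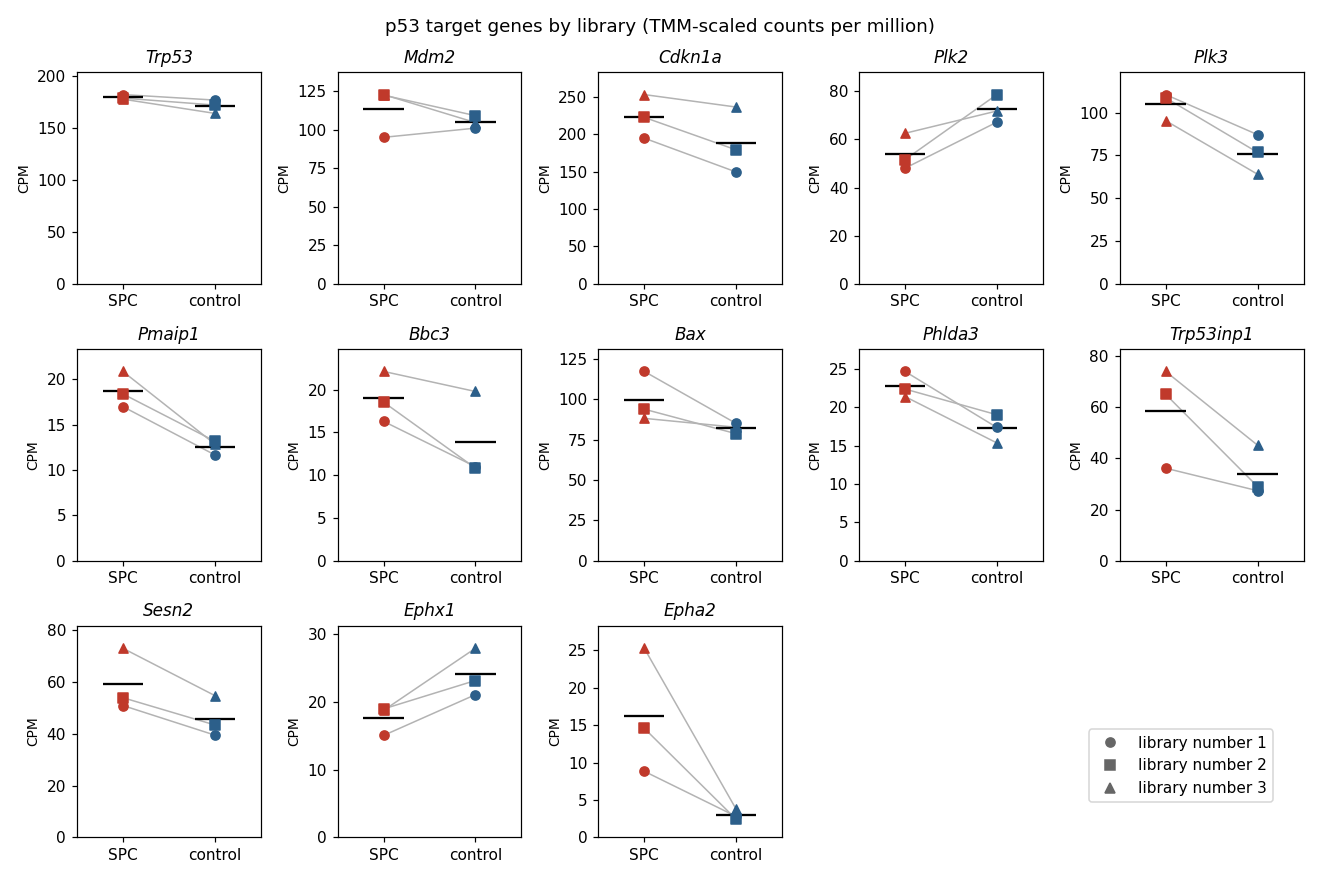
TMM-scaled CPM (vertical axes, from 0) of the 11 members called in the paired test and of Trp53 and Mdm2, with SPC at the left and control at the right of each panel. Points are single libraries, grey lines join libraries of the same number and black bars are group means; Epha2 lay between 8.84 and 25.3 CPM with SPC, above all control libraries, and Plk2 and Ephx1 were lower with SPC in every pair.

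The DNA repair genes showed no call. Of Ddb2 and Xpc, whose products recognise ultraviolet damage, Ercc5, a nuclease of the same excision pathway, Polk, a translesion polymerase, and Rrm2b, a ribonucleotide reductase subunit that supplies nucleotides for repair, 0 of 5 were called in either edgeR test (0 at an unadjusted p under 0.05 with group alone). Rrm2b had 17.6, 22.02 and 26.1 CPM with SPC, against 16.6, 18.4 and 18.9 CPM in control. SPC library 1 lay within the control range and the others above it, and the log2 fold change was 0.28 ± 0.14 (paired edgeR adjusted p = 0.103). Without both libraries numbered 1, Rrm2b was called higher in the paired test, as were 9.14% of all tested genes. The other repair genes had log2 fold changes between -0.08 and 0.11. Of the exonic bases of Ddb2, 23.8% lie under exons of Acp2 on the opposite strand.

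Epha2 (chromosome 4, 141301240 to 141329384), an ephrin receptor tyrosine kinase gene better known from epithelia, had the largest change of the members. It had 8.84, 14.6 and 25.3 CPM with SPC, against 2.80, 2.42 and 3.77 CPM in control. The lowest SPC library lay above the highest control library, and the SPC libraries differed among themselves more than the control libraries did. The log2 fold change was 2.44 ± 0.37, a 5.43-fold difference (edgeR adjusted p = 0.0373, paired 4.0e-05). With group alone the call was kept in 2 of 6 edgeR fits that each left out 1 library. The adjusted p was 0.0207 without SPC library 1 and 0.0196 without SPC library 3. The call was lost without SPC library 2 (0.150) and without control library 1 (0.0902), 2 (0.201) or 3 (0.0642). Over these 6 fits the log2 value of Epha2 ranged between 1.97 and 2.74. The 4 epithelial markers summed to 1.56 to 2.19 CPM with SPC and 1.85 to 2.59 CPM in control, with Krt8 at 0 in all libraries. The sum joins markers that moved in opposite directions. Epcam had 33, 17 and 20 counts with SPC, against 34, 41 and 42 in control. Cdh1 had 30, 23 and 7 counts, against 14, 8 and 8, and Krt18 had 9, 5 and 9, against 6, 12 and 7. Epcam and Cdh1 were not called in either edgeR test (paired adjusted p = 0.130 and 0.201). The part of these markers in the Epha2 values was not tested.

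Sesn2 (chromosome 4, 132492032 to 132510501), a stress-induced inhibitor of mTORC1 signalling, had 51.0, 54.0 and 73.1 CPM with SPC, against 39.5, 43.5 and 54.8 CPM in control. The libraries numbered 3 were the highest of both groups and the pairs gave log2 ratios of 0.37, 0.31 and 0.42. Its log2 fold change was 0.37 ± 0.16 (edgeR adjusted p = 0.478, paired 0.00582, and 0.0519 in the paired test without both libraries numbered 3). Its paralog Sesn1 had 19.3 ± 2.70 CPM with SPC and 19.6 ± 2.45 CPM in control (log2 fold change -0.02 ± 0.13, paired adjusted p = 0.923).

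Ephx1 (chromosome 1, 180976210 to 181020904), the microsomal epoxide hydrolase gene, had 15.1, 19.0 and 18.8 CPM with SPC, against 21.1, 23.2 and 27.96 CPM in control. Every SPC library lay below every control library. The log2 fold change was -0.45 ± 0.13 (edgeR adjusted p = 0.241, paired 0.00838). Fdxr, the mitochondrial ferredoxin reductase gene, Rps27l, a ribosomal protein gene, and Ak1, an adenylate kinase gene, had log2 fold changes of -0.12 ± 0.12, 0.00 ± 0.07 and 0.32 ± 0.33 without a call. Ak1 was low, with 52, 31 and 17 counts in the SPC libraries and 26, 35 and 17 in the control libraries.

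**Figure D3:**
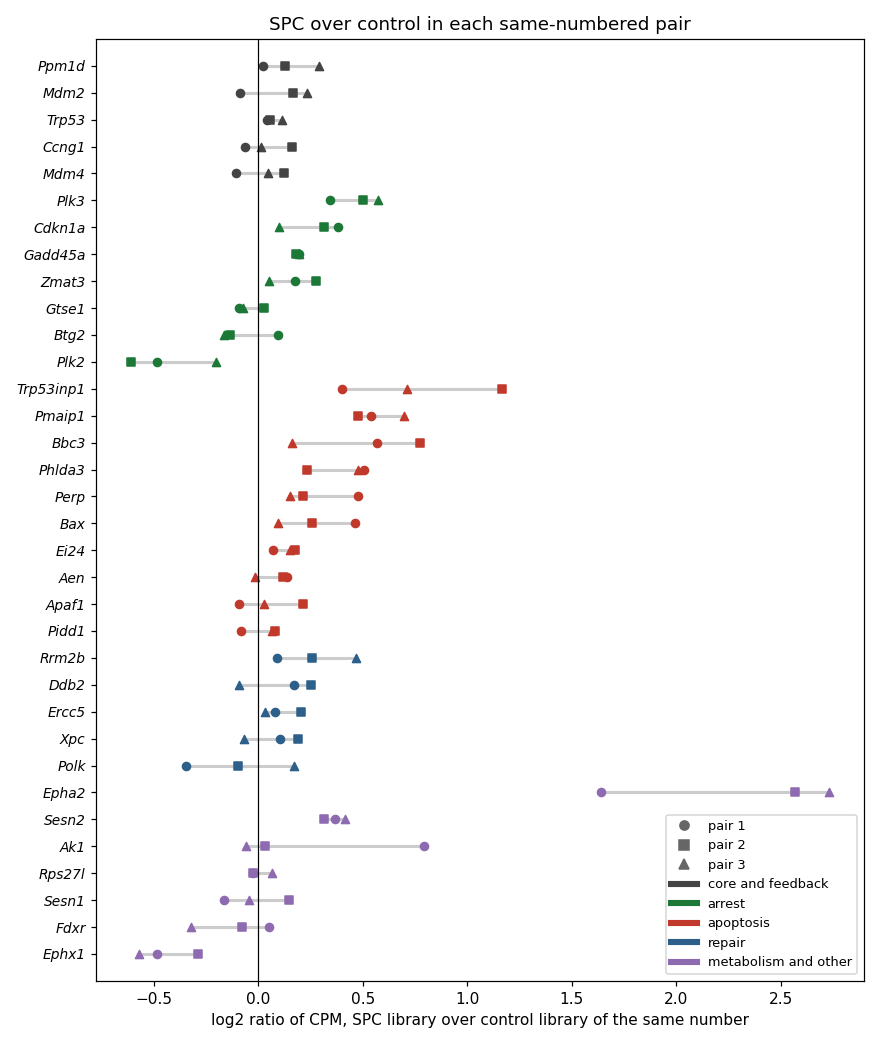
Log2 ratio of CPM between the SPC and the control library of the same number (horizontal axis) for the 34 tested members, with 1 symbol per pair and a grey bar over their range. In 17 members all 3 symbols lie right of 0 and in 2, Plk2 and Ephx1, all lie left of it.

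The members also varied with the library number. The library numbered 3 differed from that numbered 1 in the same direction in both groups for 31 of 34 members (91.2%), as for 69.6% of all tested genes. For 14 members this difference was larger than the SPC effect in both groups. Most of these had small SPC effects, such as 0.004 for Rps27l, 0.019 for Pidd1 and 0.022 for Mdm4 in the paired test. Cdkn1a and Sesn2 were the ones among them called in that test. The share among all tested genes was not computed. Cdkn1a differed by 0.38 between SPC libraries 3 and 1 and by 0.66 between control libraries 3 and 1 on the log2 scale, and Sesn2 by 0.52 and 0.47. What the numbers stand for beyond the 3 independent experiments is not given in the sources used here.

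Read per kilobase of exon, the levels spanned a wide range. Rps27l was highest, at 136.8 CPM per kilobase with SPC and 136.4 in control, and 13.7% of the 50-base windows of its longest transcript also occur in transcripts of other genes. Ccng1 (68.0 with SPC and 66.0 CPM per kilobase in control), Cdkn1a (62.9 and 53.01) and Bax (63.4 and 52.2) followed, and Trp53 stood at 44.4 and 42.3. Epha2 stood at 3.48 CPM per kilobase with SPC, above Perp, Rrm2b, Ak1 and Dram1, and at 0.642 in control, above Ak1 and Dram1. The proapoptotic Bbc3 (8.94 and 6.52) and Pmaip1 (6.86 and 4.60) were far below Bax in both groups.

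The promoter matches were set beside the calls. Of the 9 members with a match, 3 rose in the paired test (Cdkn1a, Bbc3 and Bax). Of the 18 tested members with a window and no match, 4 rose and 2 fell. The counts are a description, and the windows cover a small stretch around each start.

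**Figure D4:**
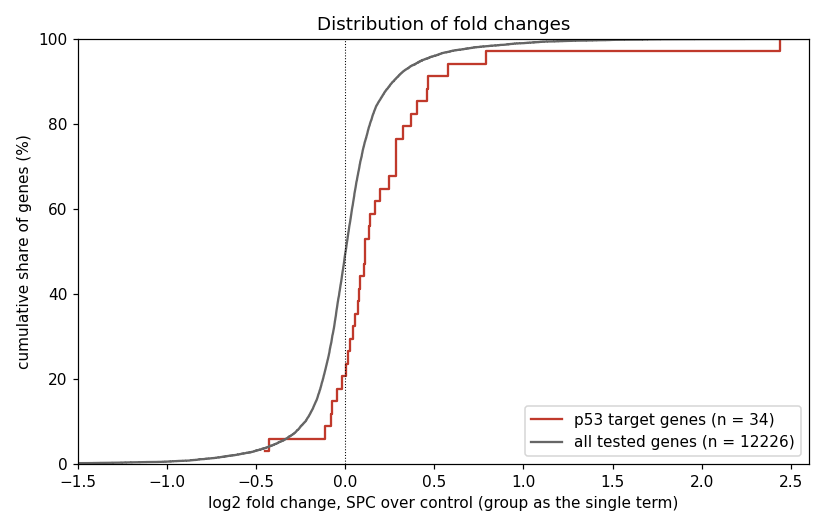
Cumulative share of genes (vertical axis, percent) by log2 fold change, SPC over control (horizontal axis, group as the single term), for the 34 tested members and all 12226 tested genes. The curve of the members lies to the right of that of all genes over most of the range, with medians of 0.11 and 0.00.

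A second list of 30 further p53 targets gave 26 tested genes. Of these, 4 rose in the paired test (4.02% of all tested genes did) and 1 fell (3.07% did). None was called with group alone (6 at an unadjusted p under 0.05 in edgeR). Log2 fold changes were above 0 for 15 of the 26 (57.7%), beside 50.5% of all tested genes, with a median of 0.08 beside 0.00. Fas, the death receptor gene, had 10.9, 11.4 and 12.6 CPM with SPC, against 6.74, 7.17 and 8.501 CPM in control, with no overlap (log2 fold change 0.64 ± 0.13, edgeR adjusted p = 0.0779, paired 0.00296). Tnfrsf10b, the receptor gene of the death ligand TRAIL, had 42.6, 45.3 and 45.9 CPM with SPC, against 37.9, 36.03 and 32.6 CPM in control (0.33 ± 0.08, paired adjusted p = 0.0282). The phosphatase gene Ptp4a3 and the lipid hydrolase gene Abhd4 rose by 0.32 ± 0.05 and 0.33 ± 0.08 in the paired test (adjusted p = 0.00552 and 0.0414), and Pml, the gene of the nuclear body scaffold, fell by 0.22 ± 0.06 (adjusted p = 0.0406). The calls of Abhd4 and Pml were lost in DESeq2 with the library number (adjusted p = 0.130 and 0.0712), and those of Abhd4, Pml and Tnfrsf10b in the paired edgeR test without both libraries numbered 2 (0.294, 0.149 and 0.0614) or 3 (0.0862, 0.163 and 0.213). Fas and Ptp4a3 were called in each of these fits. With group alone, over 8 settings of scaling, tool and filter, Fas was called in 2 and Ptp4a3 in 1.

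Upstream of p53, 0 of 14 tested damage kinases and p53 modifiers were called in either edgeR test (0 at an unadjusted p under 0.05 with group alone). In the paired test 7.08% of all tested genes were called. Log2 fold changes with group alone lay between -0.20 and 0.00, with a median of -0.09. Of the 14 genes 1 was above 0, beside 50.5% of all tested genes. In same-numbered pairs, 9 were lower with SPC in all 3 (22% of all tested genes were) and 0 were higher in all 3 (21.8% of all tested genes were). The damage kinase genes Atm, Atr, Chek1 and Chek2 had values of 0.00 ± 0.14, -0.19 ± 0.13, -0.09 ± 0.07 and -0.08 ± 0.10. In the paired test 4 of the 14 genes (Atr, Hipk2, Rad50 and Usp7) were called lower without both libraries numbered 1, where 8.27% of all tested genes were, and 0 of the 14 were called without those numbered 2 or those numbered 3. The related factor genes Trp63 and Trp73 had 0 counts and 1 to 3 counts per library, so neither was tested. Downstream of p21, the DREAM complex represses genes of the late cell cycle. Of 14 such genes, 1 was called in the paired test (7.14%), near the 7.08% of all tested genes. This was Plk1, which fell (146.2 ± 12.7 CPM with SPC and 168.2 ± 7.73 CPM in control, log2 fold change -0.20 ± 0.05, paired edgeR adjusted p = 0.0421). None of the 14 was called with group alone (2 at an unadjusted p under 0.05 in edgeR). The list had a median of -0.06, with 4 of 14 above 0, beside 50.5% of all tested genes. The Plk1 call was lost in DESeq2 with the library number (adjusted p = 0.0689) and in the paired edgeR test without both libraries numbered 2 (0.408) or 3 (0.242), where 0 of the 14 genes were called. Without those numbered 1, 5 of the 14 were called lower, beside the same 8.27% of all tested genes.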

How the data were processed

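RNA sequencing counts of 6 libraries, 3 SPC and 3 control, were used. The values are unnormalized counts for each gene symbol, as deposited by the authors. TopHat and mm10 are named in the submitters' processing notes; no source used here states the counting program, annotation or strand setting. The library kit marks strand, per the labels' protocols.

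The test was edgeR's robust quasi-likelihood F test (version 4.0.16, R 4.3.3) with TMM scaling, after filterByExpr (minimum count 10, minimum total 15), on all genes, with Benjamini-Hochberg adjustment over 12226 genes. Each SE was obtained from the fold change and its F statistic. The script was tested on simulated data that held a group effect and no effect of the library number. The pairing of libraries was therefore not part of that test. Deviations of same-numbered libraries from their group means correlated at 0.413, 0.208 and 0.508 across genes. The genes are not independent replicates. These values lay above the limit of 0.1 for pairing, so the fit with the replicate number as a block is given beside the fit without it. Within groups no pair of libraries agreed within counting noise (chi-square per degree of freedom 4.82 to 34.8). Alternatives used limma 3.58.1 and DESeq2 1.42.0. Groups of 3 against 3 allow no exact permutation p below 0.10, so none was run on single genes.

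Exon lengths and overlaps are from GENCODE M21 (GRCm38). Promoter sequences are from RefSeq. All members are reported; further genes are those of 3 lists called in either fit, with 4 kinase genes, Trp63 and Trp73 and the marker genes as context. Members, lists and tests were chosen with earlier results of these data known.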

Additional observations from a re-analysis of the deposited data

How the results depend on the processing

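Without the replicate block, the count of called genes was 282 of all tested genes and 4 members (Plk2, Plk3, Pmaip1 and Epha2) in DESeq2, and 147 genes and 1 member (Pmaip1) with no filter on low counts. limma-voom called 0 members, with 10 at an unadjusted p under 0.05, and Epha2 at an adjusted p of 0.0761. Epha2 had 0.102 with no filter. With the replicate block, 866 genes and 11 members were called in edgeR, 637 and 11 in DESeq2 and 837 and 11 in limma-voom, and the 11 members were the same in all 3 tools; the last 2 were chosen after seeing the data. Over the fits that left out a library or a number, 0 to 2112 genes and 0 to 15 members were called, 0 to 66 genes and 0 to 1 members without the block and 563 to 2112 genes and 9 to 15 members with it. In edgeR without both libraries numbered 2 and without the block, 0 genes were called and 502 had an unadjusted p under 0.05. Epha2, Pmaip1, Plk3, Bax, Trp53inp1 and Ephx1 kept their call in the block with any number left out. The other 5 members lost it in 1 of 3 such fits. The cause of these losses was not tested. Fits in the block without a number have few residual degrees of freedom, and their p-values lean on variance pooled over genes. A call kept in them is therefore a weak check. Members above 0 numbered 22 to 28 of 34 over the fits with libraries left out. Among them 9 members changed sign, with log2 fold changes of -0.22 to 0.057 for Polk, -0.11 to 0.091 for Sesn1, -0.039 to 0.038 for Rps27l, -0.039 to 0.14 for Mdm4, -0.071 to 0.10 for Ccng1, -0.020 to 0.17 for Apaf1, -0.067 to 0.090 for Pidd1, -0.17 to 0.036 for Btg2 and -0.017 to 0.55 for Ak1; none of these was called in the full data. No member changed sign under another scaling, tool or filter. Atm had 0.00 without the replicate block, -0.014 with it, -0.015 in DESeq2 and -0.013 in limma-voom with it, -0.017 in limma-voom without it, and -0.097 to 0.16 with libraries left out, and was not called.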
